A study of Homo sapiens with 8 samples.

Results

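The kinesin motor genes were described in A549, a human lung adenocarcinoma cell line, by RNA sequencing of polyadenylated RNA. Members were all protein-coding genes in GENCODE on GRCh38 whose symbol is KIF followed by a number, with or without a letter. This rule gave 39 of the 60624 genes counted, and 35 of them passed the filter on low counts, among 18661 genes tested. The 8 libraries fell into 4 groups of 2: untreated A549 cells, cells treated with indisulam, cells treated with SPHINX31, and cells treated with both compounds (the combination). Indisulam is an aryl sulfonamide that brings the splicing factor RBM39 to the DCAF15 ubiquitin ligase, which leads to its degradation, and SPHINX31 inhibits SRPK1, a kinase of serine/arginine-rich splicing factors. The methods of the study give 0.5 µM indisulam and 5 µM SPHINX31 for 24 h for A549. The sample labels give 2 µM indisulam for 18 h, values that the methods state for another line, Panc10.05. The dose and time are therefore uncertain. The replicates were described as technical, so p-values measure only the spread between libraries. All groups were grown from the same line without any genetic change named in the labels.

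Kinesins are motor proteins that use ATP to move along or to dismantle microtubules. Some carry vesicles, organelles and RNA through the cytoplasm, some serve the cilium, and a large set builds the mitotic spindle, moves chromosomes or completes cytokinesis. The genes of the mitotic set are known to be transcribed mainly in the G2 and M phases of the cell cycle, so in bulk RNA their level also follows the share of cells in those phases. Members were therefore grouped by role into 13 mitotic genes, 13 cargo transport genes, 6 cilium and hedgehog genes and 7 genes of microtubule regulation and other roles.

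The promoters of the mitotic set are shown first because most of them share a feature that the rule for members did not use. The roles came from fixed gene lists, chosen with earlier results of these data known. KIF2A, which also acts at spindle poles, was placed with microtubule regulation and other roles. Many genes of G2 and M carry a cell cycle homology region (CHR), a short element close to the transcript start that is bound by the LIN54 subunit of the MuvB complex, often with a CCAAT box upstream. The letters TTTGAA and TTCGAA were searched as the CHR and CCAAT as the box, on both strands, in RefSeq promoters of GRCh38.p14 that run from 250 bases before to 50 bases after the start. Entries were found for 33 of the 39 genes, and not for KIF13B, KIF19, KIF21B, KIF26B, KIF27 and KIF5A. The first 3 sequences below belong to mitotic genes that were lower in the combination than in untreated cells, the next 3 to mitotic genes that were higher with indisulam alone, and the last to KIF2A, the member with the lowest adjusted p-value. Each starts 100 bases before the transcript start, runs 5′ to 3′ on the strand of the gene, and has matches to either motif in capitals. The regions are chr10:92593030-92593159 on the plus strand (KIF11), chr1:200620722-200620851 on the minus strand (KIF14), chr10:89701490-89701619 on the plus strand (KIF20B), chrX:70290004-70290133 on the plus strand (KIF4A), chr11:28108127-28108256 on the minus strand (KIF18A), chr15:69414249-69414378 on the plus strand (KIF23) and chr5:62306106-62306235 on the plus strand (KIF2A).
KIF11: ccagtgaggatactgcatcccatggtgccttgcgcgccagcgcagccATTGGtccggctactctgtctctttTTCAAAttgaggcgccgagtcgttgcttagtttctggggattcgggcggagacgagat
KIF14: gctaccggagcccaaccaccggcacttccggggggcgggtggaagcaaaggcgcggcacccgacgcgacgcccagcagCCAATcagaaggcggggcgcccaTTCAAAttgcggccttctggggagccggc
KIF20B: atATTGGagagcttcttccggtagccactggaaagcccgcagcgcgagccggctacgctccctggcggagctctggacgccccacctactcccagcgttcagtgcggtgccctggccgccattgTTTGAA
KIF4A: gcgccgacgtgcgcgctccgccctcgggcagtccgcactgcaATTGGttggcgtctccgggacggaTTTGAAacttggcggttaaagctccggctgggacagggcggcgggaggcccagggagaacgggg
KIF18A: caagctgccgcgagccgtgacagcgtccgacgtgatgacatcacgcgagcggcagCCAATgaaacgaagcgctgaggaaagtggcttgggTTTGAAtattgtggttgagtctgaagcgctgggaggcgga
KIF23: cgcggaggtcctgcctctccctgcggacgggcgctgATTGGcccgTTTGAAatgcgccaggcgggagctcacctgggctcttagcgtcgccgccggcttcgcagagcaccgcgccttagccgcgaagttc
KIF2A: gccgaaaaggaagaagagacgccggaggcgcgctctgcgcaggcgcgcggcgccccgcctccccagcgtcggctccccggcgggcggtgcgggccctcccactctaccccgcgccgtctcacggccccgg

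A CHR match within 60 bases of the start was present in 10 of the 13 mitotic genes (76.9%). It was present in 1 of the 20 other kinesin genes with an entry (KIF24, 5%) and in 6.75% of the 27305 genes with a RefSeq promoter. The mitotic genes without it were KIF2B, KIF2C and KIF20A. Of these, KIF2C and KIF20A were also lower in the combination than in untreated cells, and KIF2B was not tested. A CCAAT match anywhere in the promoter was found in 10 of 13 mitotic genes, 35% of the other kinesin genes and 39.7% of all genes. Both together were found in 9 of 13 mitotic genes, in 1 of the 20 others and in 2.76% of all genes. The CHR lay upstream of the CCAAT box in none of the mitotic genes shown, and the KIF2A stretch held neither motif. A match describes letters in this window and was not tested as a binding site. Of the 9 mitotic genes with both motifs, KIF4A, KIF18A, KIF18B and KIF23 rose with indisulam and KIF20B fell. KIF11, KIF14 and KIF22 were not called with indisulam, and KIF4B was not tested. Whether the motifs go with the response was not tested.

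**Figure D1:**
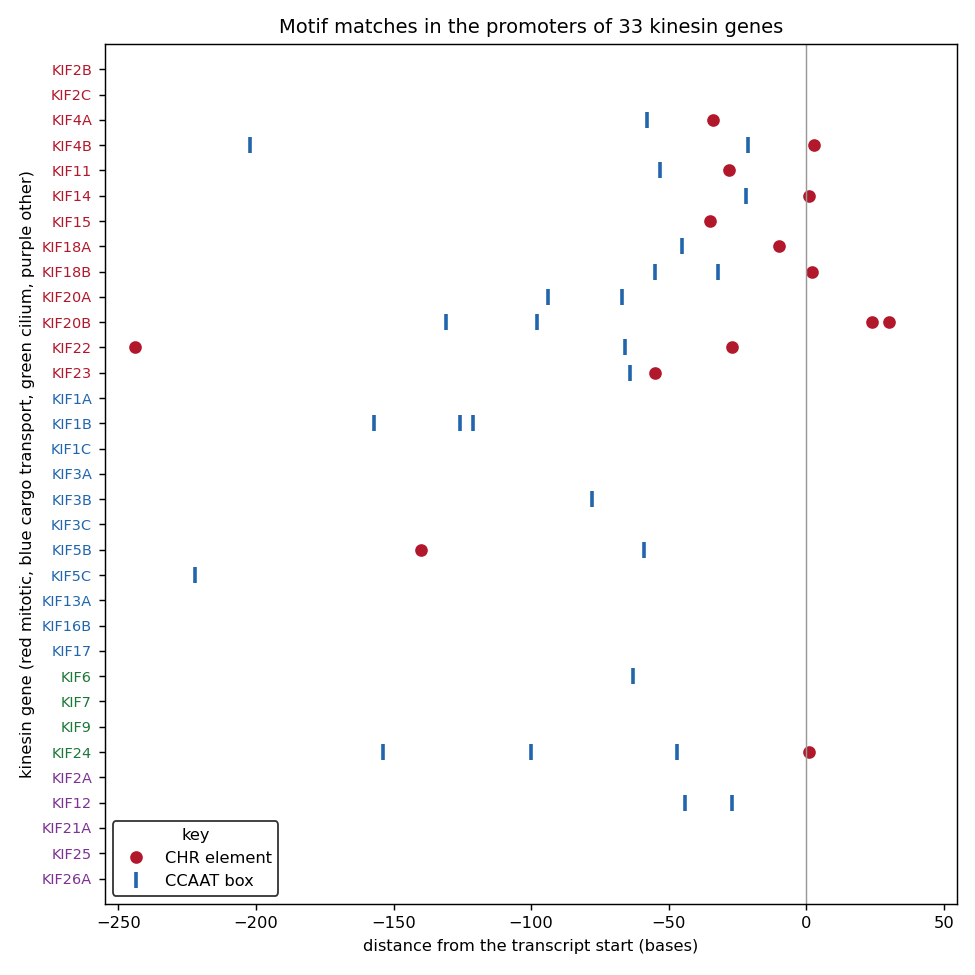
Positions of CHR (red circles) and CCAAT (blue bars) matches, in bases from the transcript start, in all RefSeq promoter entries of 33 kinesin genes, with genes on the vertical axis coloured by role. CHR matches within 60 bases of the start appear in 10 mitotic genes and in KIF24.

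In untreated cells the family was led by a cargo motor and by mitotic motors. Levels are CPM (counts scaled to the library total) divided by the length of the canonical transcript in kilobases. KIF5B, the heavy chain of conventional kinesin in most tissues, was highest at 68.9 ± 1.74 (SD, n = 2 libraries). It was followed by the cytokinesis motor KIF23 at 55.4 ± 2.08, the chromosome arm motor KIF22 at 52.7 ± 0.723 and the midzone motor KIF20A at 45.2 ± 0.318. KIF2C, which dismantles microtubules at centromeres, had 32.4 ± 0.321, and KIF11, which slides spindle microtubules apart, had 31.8 ± 0.835, and the libraries of this pair overlapped. At the low end, the largely neuronal genes KIF5A, KIF5C, KIF17 and KIF1A were between 0.0946 and 0.268 per kilobase. KIF2B had no count in any library, KIF19 had 1 count in 1 library, and KIF4B had 1 to 7 and KIF25 2 to 15 counts, so these 4 genes were not tested. The KIF4B transcript was 94.4% identical to that of KIF4A, so some reads could fit either gene. Reads without a unique alignment, 5.24% to 5.81% of recorded reads, were not counted on genes.

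**Figure D2:**
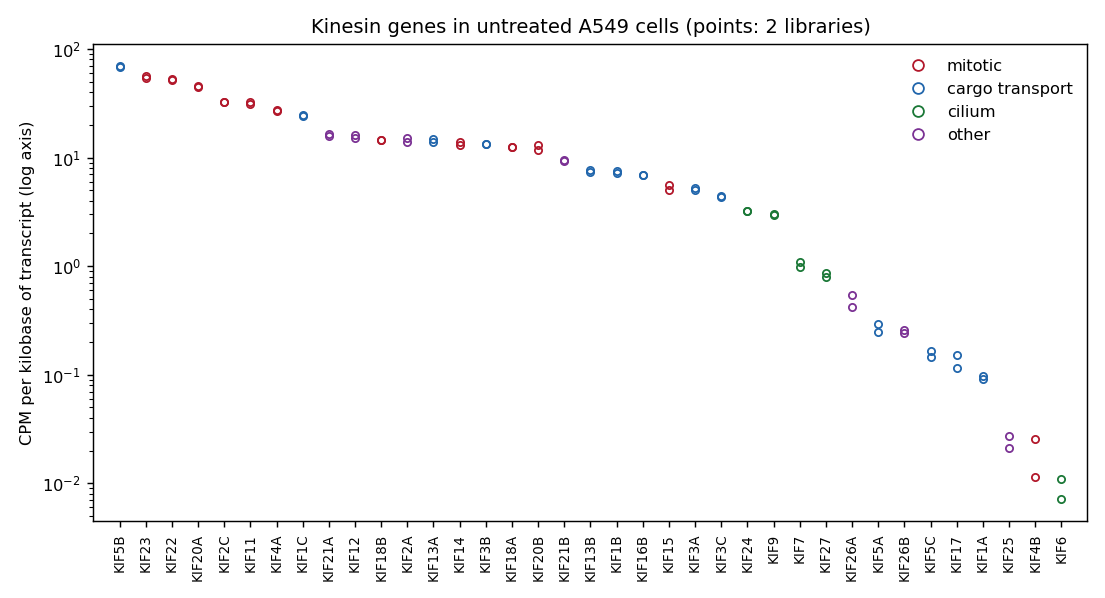
CPM per kilobase of transcript (log axis) in both untreated libraries for the 37 kinesin genes with a count there, ordered by mean and coloured by role. Mitotic genes take 6 of the 7 highest places, and KIF2B and KIF19, at 0, are not drawn.

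The sum over the family was 514 and 526 CPM per kilobase in the untreated libraries and 427 and 433 in the combination, with 510 and 496 in indisulam and 462 and 496 in SPHINX31. The mitotic genes made up 58.2% of the sum in each untreated library and 60.3% and 59.9% with indisulam, against 53.1% and 54.5% with SPHINX31 and 55.9% in each combination library. The mitotic sum itself was 299 and 307 CPM per kilobase in untreated, 307 and 297 in indisulam, 245 and 271 in SPHINX31 and 238 and 242 in combination libraries. The share was highest with indisulam, where the mitotic sum overlapped that of untreated cells, and the lowest sum was in the combination. In bulk RNA, fewer cells expressing a gene and less RNA per cell cannot be told apart.

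Library totals were between 51727369 and 63186989 counts on genes. Epithelial and A549 markers were abundant, with a sum of 7 markers (KRT8, KRT18, KRT19, CDH1, AKR1B10, AKR1C1 and ALDH1A1) of 17821 to 21300 CPM over all libraries. The lung alveolar markers NKX2-1, SFTPA1, SFTPB and SFTPC summed to at most 0.464 CPM and the blood markers PTPRC, CD3E, CD79A and HBB to at most 0.591 CPM, with SFTPB and CD3E at 0. The endothelial and fibroblast lists were at most 2.51 and 4.87 CPM, mostly PECAM1 and COL1A1.

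The comparison of indisulam with untreated cells asks how the motor genes respond when the RBM39 degrader is given alone. It called 15 of 35 kinesin genes at an adjusted p-value (edgeR quasi-likelihood test) under 0.05, where 43.7% of all tested genes and 47.3% of tested protein-coding genes were called. This share of the family, 42.9%, was near the background, with 4 genes higher (20.1% of all genes) and 11 lower (23.5%). With RLE size factors in place of TMM the split was 7 higher and 10 lower. The median log2 fold change was -0.13 over the family and 0.00 over all tested genes.

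KIF2A had the lowest adjusted p-value. It encodes a kinesin that removes tubulin from microtubule ends, at spindle poles in mitosis and in neurites, and lies on chromosome 5 at 62306162 to 62391025 (GRCh38, plus strand, 21 exons, ENSG00000068796). Its level was 110 and 121 CPM in untreated, 47.5 and 44.4 in indisulam, 117 and 126 in SPHINX31 and 36.5 and 37.7 in combination libraries. The libraries that received indisulam were all far below those that did not, and the SPHINX31 libraries overlapped the untreated range. KIF2A fell by 1.33 on the log2 scale with indisulam (SE 0.0627, edgeR adjusted p = 6.92e-09), which is 2.51-fold, and by 1.64 in the combination (SE 0.0635, edgeR adjusted p = 7.64e-10). With SPHINX31 alone the log2 fold change was 0.07 (SE 0.0602, edgeR adjusted p = 0.518). It was also lower in the combination than with indisulam alone, at a log2 fold change of -0.31 (edgeR adjusted p = 0.0108). That call was lost without indisulam replicate 1 or without either combination replicate, with log2 fold changes between -0.36 and -0.26 over all alternatives.

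The 3′ exons of KIF2A lie under another gene. Exons of other genes covered 31.4% of the canonical exon bases, and 27.2% were covered on the opposite strand by DIMT1 (ENSG00000086189), which encodes an rRNA methyltransferase. DIMT1 counts were 2170 and 2143 in untreated, 907 and 730 in indisulam, 1886 and 2042 in SPHINX31 and 661 and 742 in combination libraries. DIMT1 was also lowest in the combination and next lowest with indisulam, with a log2 fold change of -1.25 with indisulam and -1.53 in the combination. KIF2A itself had 6812 and 7200 counts in untreated and 2762 and 2263 in indisulam libraries. The libraries were stranded, but the strand setting of the counting is not given in the sources used here, and the part of shared reads in either value was not tested.

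Among the 11 tested mitotic genes, 4 were higher with indisulam (20.1% of all genes) and 3 were lower (23.5%). KIF20B, a motor of the late stages of cytokinesis (chromosome 10, 89701590 to 89774939, plus strand, 33 exons), had 76.3 and 84.0 CPM in untreated, 52.3 and 46.9 in indisulam, 51.0 and 64.8 in SPHINX31 and 33.5 and 34.0 in combination libraries. Its values were separated between untreated, single treatments and combination, with the indisulam and SPHINX31 libraries overlapping. KIF20B fell by 0.69 on the log2 scale with indisulam (SE 0.0926, edgeR adjusted p = 5.09e-05). KIF2C fell by 0.34 and KIF20A by 0.24. These 3 calls were kept under all 15 alternatives in processing.

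The mitotic genes that moved the other way were KIF18A, KIF18B, KIF23 and KIF4A. KIF18A, which limits the swings of chromosomes at the metaphase plate (chromosome 11, 28020619 to 28108156, minus strand, 17 exons), had 42.3 and 42.9 CPM in untreated, 56.8 and 55.7 in indisulam, 33.2 and 39.5 in SPHINX31 and 46.4 and 48.3 in combination libraries. Its levels fell into 4 separate ranges, lowest with SPHINX31 and highest with indisulam. KIF18A rose by a log2 fold change of 0.40 with indisulam (SE 0.0712, edgeR adjusted p = 0.000525), a call kept under all alternatives. KIF18B, a plus-end motor that works with KIF2C, had 59.8 and 59.5 CPM untreated and 70.8 and 68.3 with indisulam. KIF23, the motor subunit of centralspindlin, had 197 and 208 CPM untreated and 239 and 234 with indisulam. KIF4A, a chromosome-bound motor that shortens midzone microtubules, had 117 and 120 CPM untreated and 140 and 132 with indisulam. The log2 fold changes of KIF18B, KIF23 and KIF4A were 0.22, 0.22 and 0.20. Each of the 3 calls depended on single libraries: the call of KIF23 was lost without untreated replicate 1 (log2 fold change 0.18), and those of KIF18B and KIF4A were lost without either untreated replicate or without indisulam replicate 1 (0.20 to 0.26 and 0.16 to 0.24 over all alternatives).

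**Figure D3:**
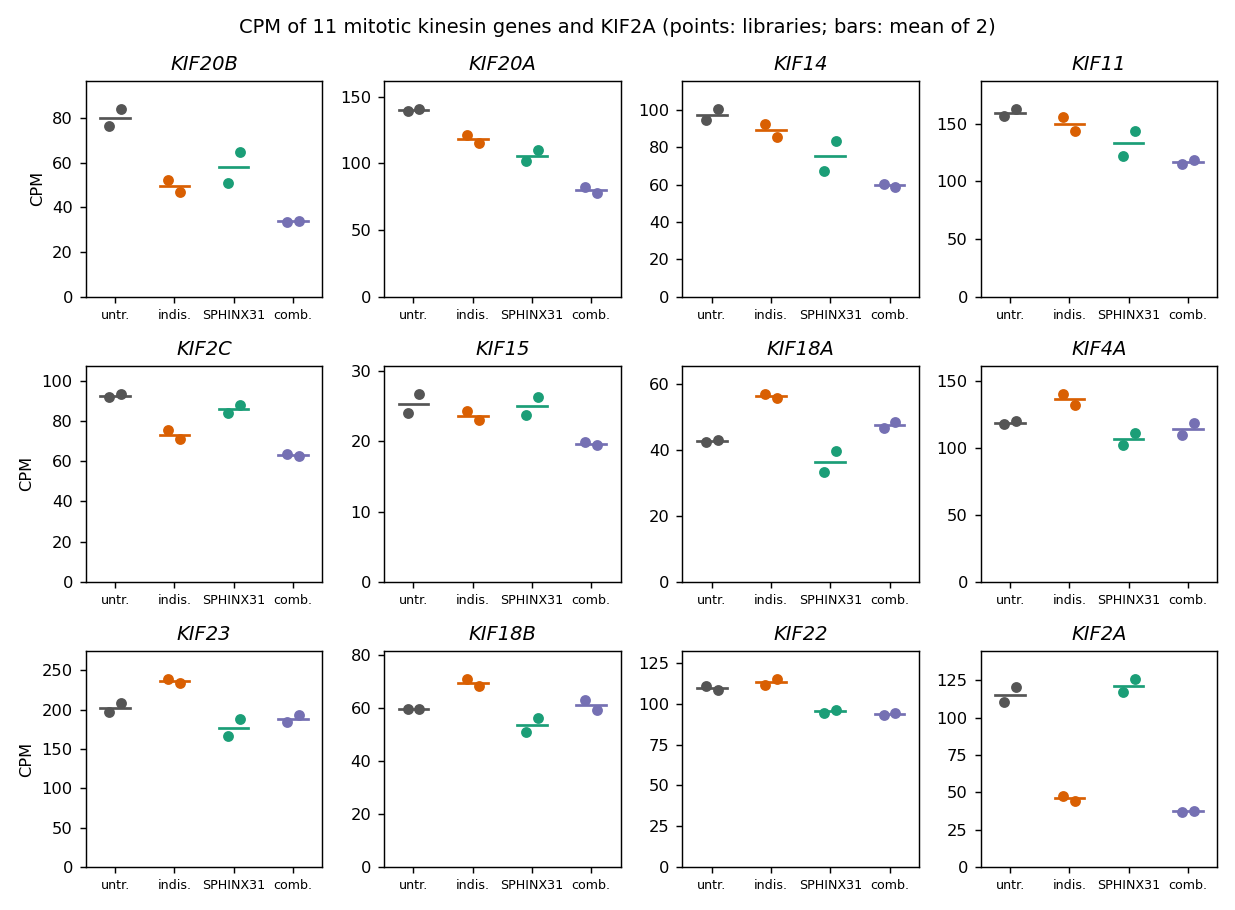
CPM of the 11 tested mitotic kinesin genes and KIF2A by group (untreated, indisulam, SPHINX31, combination), with each library as a point and the mean of 2 libraries as a bar, on axes that start at 0. KIF20B, KIF20A and KIF14 are lowest in the combination, KIF18A is highest with indisulam, and KIF2A is low in all 4 libraries that received indisulam.

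Of the 13 cargo transport genes, 5 fell with indisulam (23.5% of all genes) and none passed the test as higher (20.1%). KIF3B and KIF13A, each with a log2 fold change of 0.14 (edgeR adjusted p = 0.0525 and 0.0542), were called higher in 6 of 15 alternatives, among them RLE size factors and total counts alone. KIF1B, a carrier of mitochondria and synaptic vesicle precursors, fell by 0.30 on the log2 scale from 78.2 and 82.4 to 67.1 and 63.7 CPM. KIF16B, an endosome motor, fell by 0.32 from 36.5 and 36.2 to 30.3 and 28.1 CPM. Both calls were kept under all alternatives. The other 3 genes were expressed near the detection limit. KIF1A, a carrier of synaptic vesicle precursors, had 0.890 and 0.839 CPM in untreated, 0.447 and 0.432 in indisulam, 0.941 and 1.08 in SPHINX31 and 0.210 and 0.314 in combination libraries. Both treatments with indisulam were below all other libraries, and the combination was lowest. KIF1A fell by 0.97 on the log2 scale with indisulam (SE 0.242, edgeR adjusted p = 0.0053), a call lost with DESeq2, and by 1.71 in the combination (SE 0.267, edgeR adjusted p = 0.000131), a call kept in all alternatives. KIF5A, a neuronal conventional kinesin, had 88 and 100 counts untreated, 64 and 35 with indisulam, 66 and 75 with SPHINX31 and 62 and 53 in the combination. Its log2 fold change was -0.78 with indisulam, lost without untreated replicate 2 or indisulam replicate 2, and -0.62 in the combination, lost with DESeq2 and without untreated replicate 2 or either combination replicate (-1.17 to -0.48 and -0.74 to -0.50 over all alternatives). KIF17, a dendritic and ciliary motor, had 28 and 36 counts untreated, 10 and 13 with indisulam, 31 and 28 with SPHINX31 and 30 and 20 in the combination. It was lower with indisulam alone (log2 fold change -1.31, edgeR adjusted p = 0.00815), a call lost without untreated replicate 2 or without indisulam replicate 1 (-1.60 to -1.04 over all alternatives). In the combination 1 library lay within the untreated range, and the log2 fold change was -0.27 (edgeR adjusted p = 0.477).

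None of the 5 tested cilium genes passed the test with indisulam (43.7% of all genes did). Of the 6 tested genes of microtubule regulation and other roles, 3 fell with indisulam (23.5% of all genes): KIF2A, KIF26B and KIF21B. KIF26B, an atypical kinesin, had 3.27 and 3.49 CPM in untreated, 2.22 and 2.71 in indisulam, 3.34 and 3.42 in SPHINX31 and 2.27 and 2.22 in combination libraries. Libraries with indisulam were below all libraries without it. Its log2 fold change was -0.46 with indisulam, lost with DESeq2 and without untreated replicate 2 or indisulam replicate 1 (-0.60 to -0.32), and -0.59 in the combination, kept in all alternatives. KIF21B, a motor that restrains microtubule growth, had a log2 fold change of -0.20 that was lost in 6 alternatives, among them leaving out any single untreated or indisulam library. KIF12, in the same list, moved the other way, from 35.6 and 32.9 CPM in untreated to 41.6 and 40.7 in indisulam libraries. Its log2 fold change of 0.27 did not pass the test. KIF12 was called higher in several alternatives, among them RLE size factors and DESeq2 (0.21 to 0.32 over all alternatives).

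The comparison of SPHINX31 with untreated cells asks the same of the SRPK1 inhibitor alone. It called 7 of 35 kinesin genes (20%), where 8.61% of all tested genes and 10.3% of protein-coding genes were called. 6 genes were lower (3.67% of all genes) and 1 was higher (4.94%). Of the 6 lower genes, 5 were mitotic: KIF20B, KIF20A, KIF14, KIF11 and KIF22. All 11 tested mitotic genes had a negative log2 fold change, with a median of -0.20 against -0.01 over all tested genes. KIF20A, which carries the chromosomal passenger complex to the midzone (chromosome 5, 138178719 to 138187723, plus strand, 19 exons), had 139 and 141 CPM in untreated, 121 and 115 in indisulam, 101 and 110 in SPHINX31 and 81.8 and 77.7 in combination libraries. The 4 groups did not overlap and stood in that order. KIF20A fell by 0.40 on the log2 scale with SPHINX31 (SE 0.0553, edgeR adjusted p = 0.000655), a call kept under all 15 alternatives. KIF20B fell by 0.47 (edgeR adjusted p = 0.00702) and KIF14 by 0.37 (edgeR adjusted p = 0.0131), and both calls were lost without untreated replicate 2 or without SPHINX31 replicate 1 (log2 fold changes of -0.65 to -0.31 and -0.53 to -0.23 over all alternatives). KIF11 fell by 0.26, a call lost in 6 alternatives, among them total counts alone and leaving out SPHINX31 replicate 1 or any single untreated or combination library (-0.39 to -0.15). KIF22 fell by 0.20, a call lost without either untreated replicate or without SPHINX31 replicate 1 (-0.22 to -0.16).

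The SPHINX31 libraries differed from each other in the mitotic genes. SPHINX31 replicate 2 was above replicate 1 in 11 of 11 mitotic genes, by a median of 0.15 on the log2 scale, whereas it was above in 54.5% of 9787 genes with a mean of at least 500 counts. Without SPHINX31 replicate 1, 1 mitotic gene (KIF20A) remained called, and without replicate 2, 8 were called. Without untreated replicate 2, KIF20A alone remained called, and without untreated replicate 1, 3 mitotic genes. Without SPHINX31 replicate 1 the sign stayed negative in 10 of 11 mitotic genes. The part of this library difference in the calls was not tested.

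KIF16B was the kinesin gene that was higher with SPHINX31, at 45.5 and 43.2 CPM against 36.5 and 36.2 in untreated cells. Its log2 fold change of 0.29 (SE 0.0612, edgeR adjusted p = 0.0111) lost its call without either untreated replicate or without SPHINX31 replicate 1 (0.25 to 0.32 over all alternatives). KIF13A, another endosome motor, fell by 0.20 on the log2 scale, a call lost in 5 alternatives, among them leaving out untreated replicate 1, untreated replicate 2 or SPHINX31 replicate 1. No gene of the cilium or other lists passed the test with SPHINX31, where 8.61% of all genes did.

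The comparison of the combination with untreated cells asks for the joint response. It called 20 of 35 kinesin genes (57.1%), where 50% of all tested genes and 53.7% of protein-coding genes were called. 16 were lower (26.3% of all genes) and 4 were higher (23.8%). The higher genes include KIF6, which passed the filter on low counts only through treated libraries. The mitotic list held 7 genes that fell and none that rose, although KIF18A was called higher in 4 of 15 alternatives (total counts alone, only the compared groups, and without either SPHINX31 replicate). The same 7 genes (KIF20B, KIF20A, KIF14, KIF2C, KIF11, KIF15 and KIF22) were called lower under each of 15 alternatives. KIF20B fell by 1.25 on the log2 scale (SE 0.0945, edgeR adjusted p = 2.02e-07), 2.38-fold, KIF20A by 0.81 (SE 0.0559, edgeR adjusted p = 8.31e-08) and KIF14 by 0.71 (SE 0.0819, edgeR adjusted p = 9.47e-06). KIF14, a midbody motor that recruits citron kinase (chromosome 1, 200551497 to 200620751, minus strand, 30 exons), had 94.7 and 101 CPM in untreated, 92.7 and 85.9 in indisulam, 67.5 and 83.7 in SPHINX31 and 60.2 and 59.0 in combination libraries. Its combination libraries were the lowest, while the other 3 groups followed in the order SPHINX31, indisulam and untreated.

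The remaining called mitotic genes moved by less. KIF2C had 92.1 and 93.4 CPM untreated and 63.6 and 62.7 in the combination, and fell by 0.55 on the log2 scale. KIF11, the target of several antimitotic compounds, had 157 and 163 CPM untreated and 115 and 119 in the combination, and fell by 0.45. KIF15, a spindle motor that can replace part of the function of KIF11, had 1486 and 1593 counts untreated and 1135 and 1114 in the combination, and fell by 0.37. KIF22 fell by 0.22 from 111 and 109 to 93.5 and 94.7 CPM. The genes that rose with indisulam did not pass the test here: the log2 fold change in the combination was 0.15 for KIF18A, 0.03 for KIF18B, -0.06 for KIF4A and -0.10 for KIF23.

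**Figure D4:**
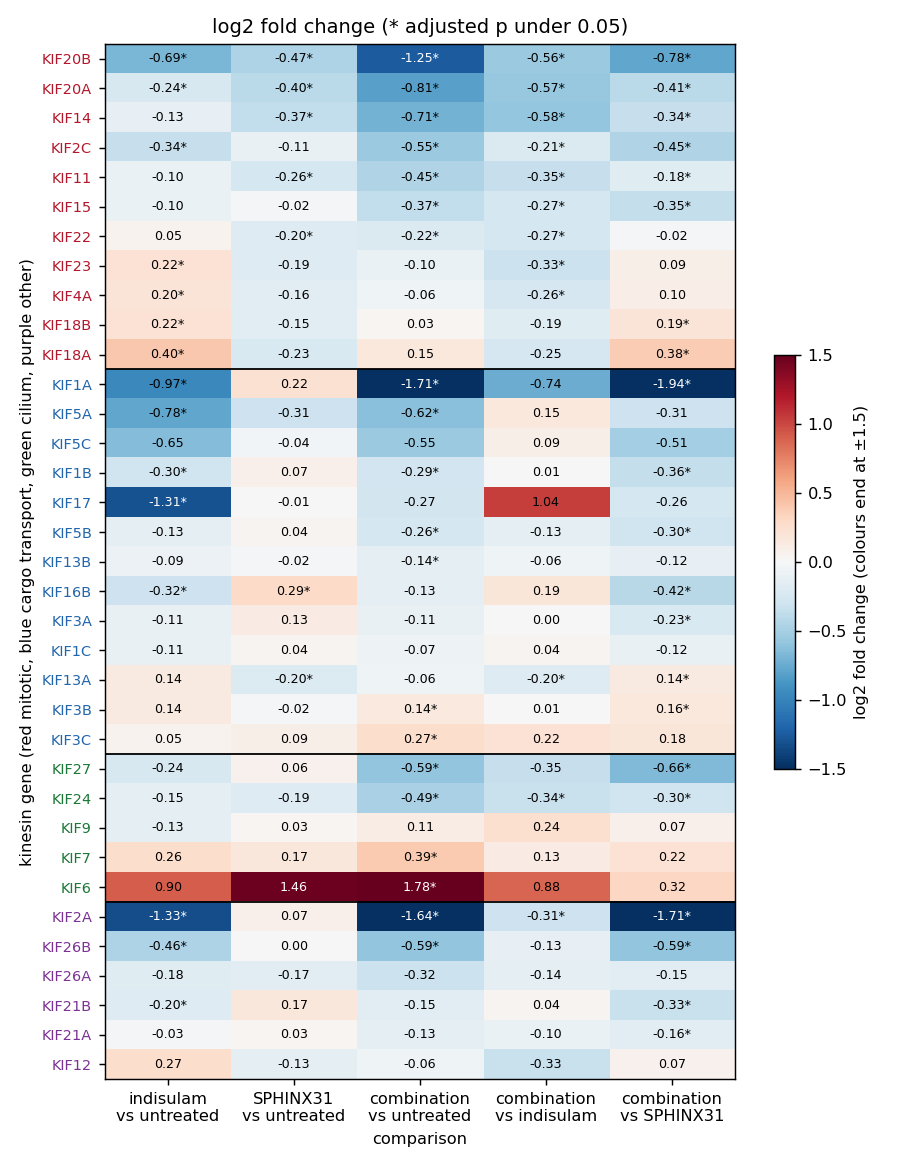
Log2 fold changes of the 35 tested kinesin genes (rows, grouped and coloured by role) in 5 comparisons (columns), with blue for lower, red for higher and a star for an adjusted p-value under 0.05. In the column of the combination against indisulam all 11 mitotic genes are blue and 9 carry a star.

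Among the 13 cargo transport genes 5 fell (26.3% of all genes) and 2 rose (23.8%) in the combination, a share near that of all genes. KIF5B fell by 0.26 on the log2 scale from 397 and 412 to 323 and 350 CPM, and KIF1B by 0.29, both kept in all alternatives. KIF3C and KIF3B, motor subunits of kinesin-2 that can each pair with KIF3A, rose by log2 fold changes of 0.27 and 0.14. The call of KIF3C was lost without untreated replicate 1 or combination replicate 2 (0.26 to 0.32), and that of KIF3B without either untreated replicate or combination replicate 2 and with every gene of at least 1 count (0.11 to 0.20). KIF13B fell by 0.14, which was lost in 7 alternatives, among them leaving out any single untreated or combination library.

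Among the 5 tested cilium genes 2 fell (26.3% of all genes) and 2 rose (23.8%) in the combination. KIF27, a relative of the hedgehog regulator KIF7, had 5.76 and 6.31 CPM in untreated, 5.67 and 4.47 in indisulam, 5.78 and 6.82 in SPHINX31 and 3.69 and 4.30 in combination libraries. It was lowest in the combination, at a log2 fold change of -0.59 (SE 0.134, edgeR adjusted p = 0.00236). KIF24, a centriolar kinesin that restrains cilium formation and the single non-mitotic kinesin gene with a CHR match near the start, fell by 0.49 from 20.2 and 20.4 to 14.0 and 14.9 CPM. Both calls were kept in all alternatives. KIF7 had 309 and 269 counts untreated and 372 and 340 in the combination, a log2 fold change of 0.39 that was lost without untreated replicate 2 or combination replicate 1 (0.32 to 0.46). KIF6, a motor of motile cilia, had 4 and 6 counts in untreated, 7 and 10 in indisulam, 18 and 8 in SPHINX31 and 14 and 19 in combination libraries, too few for a firm statement. KIF6 passed the filter on low counts only through treated libraries, so its place among the genes that rose gives no support of its own. Its log2 fold change of 1.78 in the combination (SE 0.539, edgeR adjusted p = 0.013) was lost with DESeq2 and without untreated replicate 1 or combination replicate 2 (1.499 to 2.12).

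The comparison of the combination with indisulam alone asks what SPHINX31 adds to indisulam. It called 12 of 35 kinesin genes (34.3%), where 7.5% of all tested genes and 8.97% of protein-coding genes were called. All 12 were lower (4.32% of all genes) and none was higher (3.17%). Scaled to total counts without TMM, the split was 9 lower and 2 higher, whereas over all tested genes it turned from 807 lower and 592 higher to 498 lower and 942 higher. 9 of the 12 belonged to the mitotic list, and the others were KIF2A, KIF13A and KIF24. The call of KIF13A (-0.20) was lost in 9 of 15 alternatives, among them total counts alone and leaving out any single untreated, indisulam or combination library (-0.22 to -0.15), and that of KIF24 (-0.34) was lost without indisulam replicate 1 or either combination replicate (-0.39 to -0.28). Every tested mitotic gene had a negative log2 fold change, between -0.58 and -0.19 with a median of -0.27, against a median of 0.00 over all tested genes. These signs were kept in all 11 genes under each of the 15 alternatives.

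KIF14 showed the largest difference among the genes called here, lower by 0.58 on the log2 scale (SE 0.0821, edgeR adjusted p = 0.00104), followed by KIF20A with a log2 fold change of -0.57 (SE 0.056, edgeR adjusted p = 0.000119) and KIF20B with -0.56 (SE 0.0954, edgeR adjusted p = 0.00374). The calls of KIF14, KIF20A and KIF22 (-0.27) were kept under all alternatives. The call of KIF20B was lost without either combination replicate (-0.64 to -0.47), that of KIF11 (-0.35) without indisulam replicate 1 or either combination replicate (-0.41 to -0.29), that of KIF23 (-0.33) without combination replicate 1 (-0.36 to -0.28) and that of KIF4A (-0.26) without indisulam replicate 1 or combination replicate 1 (-0.31 to -0.20). The calls of KIF15 (-0.27) and KIF2C (-0.21) were lost with total counts alone and with fits on the compared groups alone. They were also lost when any of several single libraries was left out, untreated replicates among them. That of KIF15 was lost with the replicate block too. KIF18A and KIF18B had log2 fold changes of -0.25 and -0.19 (edgeR adjusted p = 0.0519 and 0.0803). Without combination replicate 1, 3 mitotic genes were called, and without combination replicate 2 or indisulam replicate 1, 5 were called in either case. In the indisulam group replicate 2 was above replicate 1 in 1 of 11 mitotic genes, with a median log2 difference of -0.08.

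Indisulam and the combination thus had opposite signs against untreated cells for KIF23 (0.22 and -0.10) and KIF4A (0.20 and -0.06), although neither combination value passed the test. The combination and single treatments were set against the same untreated libraries, so their values are not independent.

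Compared with SPHINX31 alone, the combination called 21 of 35 kinesin genes (60%), where 49.9% of all tested genes and 53.6% of protein-coding genes were called. 17 were lower (26.5% of all genes) and 4 were higher (23.4%). KIF1A was lower by 1.94 on the log2 scale, KIF2A by 1.71 and KIF20B by 0.78. The higher genes were KIF18A with a log2 fold change of 0.38, KIF18B with 0.19, KIF3B with 0.16 and KIF13A with 0.14. The calls of KIF1A, KIF2A, KIF20B and KIF18A were kept under all alternatives. That of KIF18B was lost without SPHINX31 replicate 1 or combination replicate 1 (0.13 to 0.27), that of KIF3B without SPHINX31 replicate 1 or combination replicate 2 (0.12 to 0.23), and that of KIF13A in 11 of 15 alternatives (0.12 to 0.18), among them DESeq2 and leaving out any single library other than SPHINX31 replicate 2.

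The interaction asks whether the combination departs from the sum of both single responses on the log2 scale. It called 0 of 35 kinesin genes and 0% of all tested genes. 6 kinesin genes and 1584 of all genes had an unadjusted p-value under 0.05, and DESeq2 called 0 kinesin genes and 31 of all genes. The lowest adjusted p was that of KIF2A, with an interaction of -0.38 (SE 0.0881, edgeR adjusted p = 0.316). The 11 mitotic genes had a negative interaction, between -0.25 and -0.02, with a median of -0.10 against 0.00 over all tested genes, but single libraries moved this value. Without SPHINX31 replicate 2, 7 of 11 were negative with a median of -0.03, and without SPHINX31 replicate 1 the median was -0.19. Without either combination replicate 10 of 11 were negative, and the median was -0.06 without indisulam replicate 1 and -0.15 without indisulam replicate 2. The standard error of the interaction was 0.0679 to 0.132 in the mitotic genes, and 1 of them had an unadjusted edgeR p-value under 0.05. The size of interaction that these libraries could detect was not tested.

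The genes that work with kinesins were read from lists of related genes. Among 20 light chains, adaptors and kinesins with other symbols, 3 rose and 3 fell in the combination (30%, where 50% of all genes were called). KIFC1, the minus-end directed spindle motor, fell by 0.64 on the log2 scale, TRAK2, an adaptor of mitochondrial transport, by 0.51 and the kinetochore motor CENPE by 0.46, whereas the adaptor TRAK1 rose by a log2 fold change of 0.38. Of the called genes, KIFC1 and CENPE were also the 2 that were lower in the combination than with indisulam (log2 fold changes of -0.47 and -0.37). Among 19 tested dynein and dynactin genes, which move cargo the opposite way, 6 rose (23.8% of all genes) and 6 fell (26.3%) in the combination, with the extremes ACTR1B (-0.62) and DYNLT3 (0.33), and 0 of 19 passed the test with SPHINX31 (5 at an unadjusted p under 0.05), where 8.61% of all genes did.

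Of the 19 partners and regulators of mitotic kinesins, 15 were lower in the combination than with indisulam (4.32% of all genes) and none was higher (3.17%), with a median log2 fold change of -0.28. With indisulam alone 5 of them rose (20.1% of all genes) and 3 fell (23.5%), with SPHINX31 9 fell (3.67%) and none rose (4.94%), and in the combination 10 fell (26.3%) and 1 rose (23.8%). ECT2, the cytokinesis exchange factor for RhoA that binds centralspindlin, fell by 1.24 on the log2 scale in the combination, the ring protein ANLN by 0.78 and the KIF14 partner CIT by 0.73, while cyclin CCNB2 rose by a log2 fold change of 0.16. PRC1 (122 to 187 counts per library) and NUSAP1 (24 to 44) had low counts in this list, which limits what their tests can show.

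Tubulins, the building blocks of the tracks, fell in 9 of 12 genes with SPHINX31 (3.67% of all genes) and rose in none (4.94%). With indisulam 6 were higher (20.1%) and 1 was lower (23.5%). In the combination 6 fell (26.3%) and 2 rose (23.8%), with the extremes TUBG1 (-0.49) and TUBB3 (0.59). Between the combination and indisulam 7 of 12 tubulins were lower (4.32% of all genes) and none was higher (3.17%). Their median log2 fold change there was -0.28, near those of the mitotic kinesins (-0.27) and their partners (-0.28). Of 10 replication licensing genes, which act in an earlier phase of the cycle, 0 passed the edgeR test between the combination and indisulam (7.5% of all genes), 4 had an unadjusted p under 0.05, and the median log2 fold change was -0.11 with 7 of 10 negative. The difference from the mitotic lists was not tested. Between the combination and SPHINX31 9 were higher (23.4% of all genes) and 1 was lower (26.5%). Against untreated cells, 5 of 10 rose (20.1% of all genes) and 1 fell (23.5%) with indisulam, and 5 fell (3.67%) with SPHINX31. In the combination 2 licensing genes rose (23.8%) and 1 fell (26.3%), led by ORC1 (0.78) and CDC6 (-0.58).

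Of 16 transcription factors and other regulators of mitotic genes, CDKN1A among them, 5 were higher and 5 lower in the combination. This share of 62.5% stood beside 50% of all tested genes and 53.7% of protein-coding genes. RBL1, a pocket protein of the DREAM repressor complex, fell by 1.42 on the log2 scale and MYBL2, an activator that joins MuvB, by 0.94, while the MuvB subunit LIN37 rose by a log2 fold change of 0.80. Of 14 matched genes of intraflagellar transport, the process that KIF3A and KIF3B drive, 7 fell (26.3% of all genes) and 4 rose (23.8%) in the combination. IFT88 fell by 1.51 and IFT172 by 0.82, while IFT27 rose by a log2 fold change of 0.34, and 0 of 14 passed the edgeR test with SPHINX31 (2 at an unadjusted p under 0.05), where 8.61% of all genes did.

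**Figure D5:**
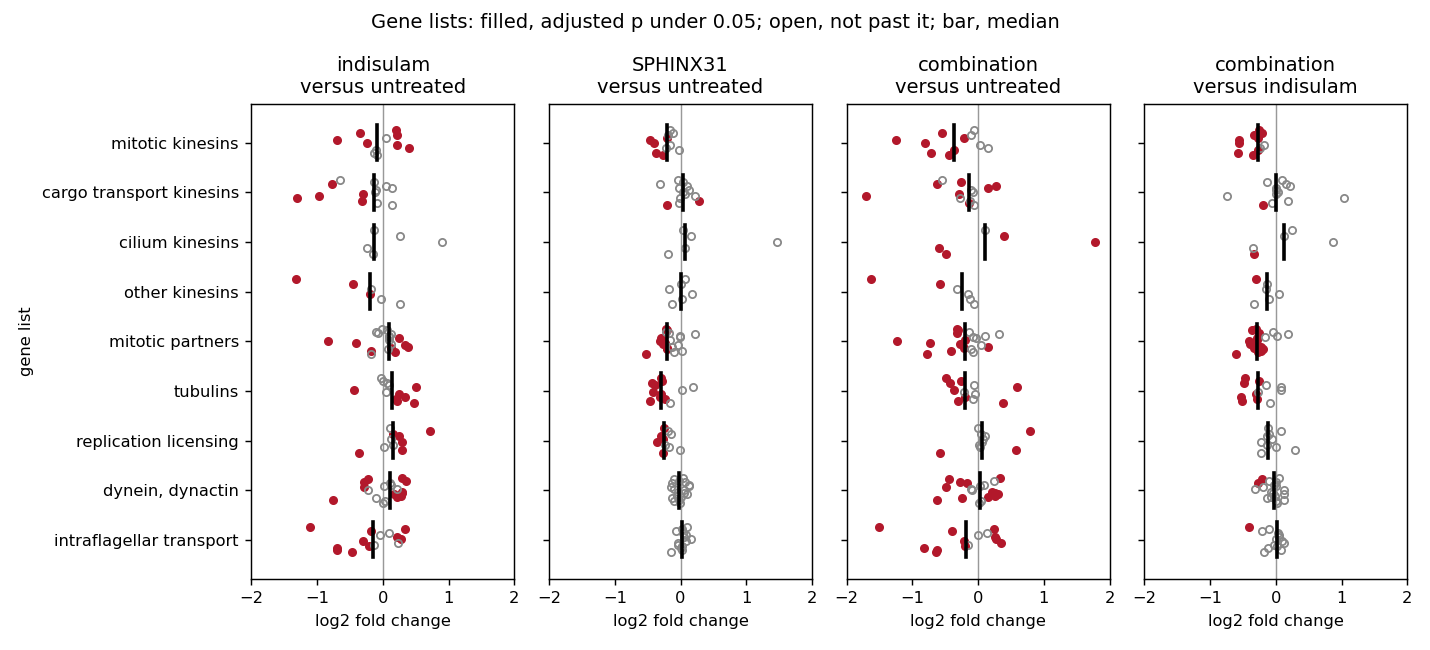
Log2 fold changes in 4 comparisons (panels) for the kinesin role lists and 5 related lists (rows), with 1 point per gene, filled red where the adjusted p-value was under 0.05, and a bar at the list median. All mitotic kinesins and 17 of 19 partners lie left of 0 in the panel of the combination against indisulam, with medians of -0.27 and -0.28, and the medians of the lists were not tested against each other.

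Kinesin genes have many exons, with a median of 21 over all members against 8 over 19895 protein-coding genes, tested or not. Among the tested members the median was 22 (8 to 49). Across the 35 members the number of exons had a Spearman correlation of -0.16 with the log2 fold change under indisulam, 0.08 with SPHINX31 and -0.22 in the combination. For transcript length these were -0.35, 0.41 and -0.30, with the opposite sign under SPHINX31. Against indisulam the combination gave -0.08 for exons and 0.09 for length, and against SPHINX31 -0.30 and -0.39. These describe genes of the same libraries and are given without a test. Exons of other genes covered at least 10% of the exon bases of 3 of 35 tested members: KIF2A, KIF9 (17.1%, by KIF9-AS1) and KIF27 (11.4%). KIF9-AS1 fell by 1.18 on the log2 scale with indisulam, whereas KIF9 had a log2 fold change of -0.13 that did not pass the test.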

How the data were processed

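The authors deposited raw counts of reads per Ensembl gene for each of the 8 A549 libraries. Stranded, paired-end 150 bp libraries were made from polyadenylated RNA. The submitters' processing notes name HISAT2 2.2.1, HTSeq and GRCh38. The annotation and strand setting of the counting are not given in the sources used here. Gene names, positions, exons and transcript lengths came from GENCODE 44. Rows for unassigned reads were left out, and genes held 83.0% to 86.0% of recorded reads.

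Counts were analysed with edgeR 4.0.16 in R 4.3.3 on all libraries together (TMM, a filter on low counts by group, quasi-likelihood test, Benjamini-Hochberg adjustment over 18661 genes, threshold 0.05), leaving 4 residual degrees of freedom. CPM are counts over TMM-scaled library totals. Depth was 51727369 to 63186989 counts per library, and the TMM factors were 0.978 to 1.02. Alternatives were other scaling and filters, DESeq2 1.42.0, a replicate block, fits on the compared groups alone and leaving out each library. A group left with 1 library was assumed to vary like the others. The procedure was tested on simulated data. Library values were given for members called with a log2 fold change of at least 0.58 in size against untreated cells or moving against their role list. At most 4 genes per related list were named for their change. Members, lists and tests were chosen with earlier results of these data known.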

Additional observations from a re-analysis of the deposited data

How the results depend on the processing

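The number of kinesin genes called kept within 1.5 times its value under other scaling, other filters, DESeq2 and fits on the compared groups alone in 5 of the 6 comparisons. The exception was the interaction, where keeping every gene with at least 1 count called 1 kinesin gene, KIF2A, in place of 0. Leaving out 1 library gave 9 to 18 calls with indisulam (15 with all libraries), 1 to 11 with SPHINX31 (7), 16 to 21 in the combination (20), 4 to 13 for the combination against indisulam (12) and 16 to 21 for the combination against SPHINX31 (21). Fewest calls came without untreated replicate 2 (9 with indisulam and 1 with SPHINX31), without SPHINX31 replicate 1 (1) and without combination replicate 1 (4 against indisulam). Over all tested genes the same step gave 440 to 1612 calls for the combination against indisulam (1399) and 482 to 1810 with SPHINX31 (1606), and the interaction called 31 with DESeq2 and 94 with every gene of at least 1 count (0). Over all 35 genes, comparisons and alternatives, 2904 values kept their side of the threshold and direction, 138 lost a call, 67 gained one and none that was called changed sign.

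The labels number the replicates but do not say that a number marks a shared batch. Deviations of replicate 1 from the group mean correlated between -0.57 (untreated with indisulam) and 0.46 (untreated with SPHINX31) over 9787 genes, so equal numbers did not deviate together in every pair, and the samples were not treated as paired. With the replicate block the calls were 16 with indisulam, 6 with SPHINX31, 20 in the combination, 11 against indisulam, 19 against SPHINX31 and 0 for the interaction. With 2 technical libraries per group, some calls were lost with a library while others of small size, such as KIF22 in the combination (-0.22), were kept in all 15. Low counts limited KIF1A, KIF5A, KIF6 and KIF17.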
